A study of Mus musculus with 4 samples.

Results

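The messenger RNA of the homeobox gene Otx2 and of 7 genes of parvalbumin cells and perineuronal nets was described in the mouse hippocampus. The 8 genes (Otx2, Pvalb, Acan, Bcan, Ncan, Hapln1, Hapln4 and Tnr) were taken by symbol from the authors' deposited table of 15713 genes, in which each had 1 entry. Otx2 was chosen by its large log2 fold change in this same comparison, and the other 7 were added for their roles with results of the comparison known, so the values of all 8 are given as a description, with no test. RNA sequencing covered 4 hippocampus samples of C57BL/6 mice, an inbred laboratory strain, aged 11 to 12 weeks. Of these, 2 came from mice with developmental exposure to ATO at 5000 ppb, and 2 came from untreated control mice. ATO is not spelled out in the labels; arsenic and offspring are named in the series title. Nothing in the labels says whether the replicates of a group came from separate litters or single animals, so the p-values below measure only the spread between these samples, which may be technical.

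Otx2 encodes a transcription factor that the choroid plexus, the epithelium that makes cerebrospinal fluid, continues to produce in adult mice. In mouse visual cortex, OTX2 protein from the choroid plexus is known to reach fast-spiking inhibitory neurons that contain the calcium-binding protein parvalbumin (Pvalb), where it binds the chondroitin sulfate of the surrounding net. A perineuronal net is a lattice of hyaluronan, of proteoglycans of the lectican family (Acan, Bcan and Ncan encode aggrecan, brevican and neurocan), of link proteins that fasten lecticans to hyaluronan (Hapln1, Hapln4) and of tenascin-R (Tnr), which ties lecticans together. In the hippocampus such nets surround parvalbumin cells and pyramidal neurons of CA2. Only RNA was measured here, so neither OTX2 protein nor the nets themselves are part of these data.

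Counts summed to 17251032 and 16696546 in ATO replicates 1 and 2 and to 14832214 and 15078919 in control replicates 1 and 2, so 1 count was worth between 0.0580 and 0.0674 CPM (counts scaled to the size of the library). Neuronal content was looked at through 12 neuronal and hippocampal markers, all of them counted in every library. Their summed levels were 8092 and 8240 CPM in ATO and 8390 and 7933 CPM in control. Such a sum, which includes genes of neurons in general, does not tell hippocampus from other brain tissue. It can also hide opposite shifts of single markers. By the quasi-likelihood test of edgeR, adjusted after Benjamini and Hochberg over all genes, 586 genes (3.73%) had an adjusted p under 0.05, 451 of them higher in ATO (2.87%) and 135 lower (0.859%); outside the 8 genes, "rose" and "fell" are written of genes past that threshold. Of the 8 genes 1, Otx2, was past it, and nothing is read from that count.

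Promoter sequences are shown because Otx2 and the genes that moved most like it, F5 and Cldn2, are those whose values the account turns on. Each window runs from 250 bases before to 50 bases after a RefSeq transcript start, 5′ to 3′ on the strand of the gene, in build GRCm38.p6. Otx2 has 4 such windows, and the one that holds the motif described next is printed (chr14:48665060-48665359, minus strand); the others are F5 (chr1:164151585-164151884, plus strand) and Cldn2 (chrX:139800558-139800857, plus strand). Capitals mark the motif TAATCC or its reverse complement GGATTA, the core bound by homeodomains of the OTX class.
Otx2: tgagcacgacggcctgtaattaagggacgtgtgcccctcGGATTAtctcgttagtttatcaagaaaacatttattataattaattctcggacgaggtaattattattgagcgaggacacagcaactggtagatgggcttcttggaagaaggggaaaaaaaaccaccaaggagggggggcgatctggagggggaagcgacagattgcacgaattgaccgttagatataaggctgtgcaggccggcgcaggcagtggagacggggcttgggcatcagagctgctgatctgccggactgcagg
F5: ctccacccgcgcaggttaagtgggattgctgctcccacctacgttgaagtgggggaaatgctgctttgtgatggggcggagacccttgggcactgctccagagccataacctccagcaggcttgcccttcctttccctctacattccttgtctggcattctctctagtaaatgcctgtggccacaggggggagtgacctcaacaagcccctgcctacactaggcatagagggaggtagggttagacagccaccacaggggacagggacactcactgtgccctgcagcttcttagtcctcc
Cldn2: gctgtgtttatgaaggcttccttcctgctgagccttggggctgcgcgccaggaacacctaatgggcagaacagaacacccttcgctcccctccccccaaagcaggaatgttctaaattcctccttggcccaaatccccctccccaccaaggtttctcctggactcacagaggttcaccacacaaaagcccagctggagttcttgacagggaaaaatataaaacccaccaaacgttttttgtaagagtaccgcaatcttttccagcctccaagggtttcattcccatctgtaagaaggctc
The motif, searched on both strands, was in 1 of the 4 Otx2 windows and in neither the F5 nor the Cldn2 window. Of the 8 genes 7 had a window in the table, all but Hapln4, and 1 of these 7, Otx2, held the motif in any window. The motif was held by 8.14% of the 27025 genes with windows and by 1 of 15 choroid plexus markers with a window. The 27025 genes had 32851 windows, of which 7.06% held it. A gene with 4 windows, such as Otx2, has more room for a match than a gene with 1, so these shares are not like for like. A match is a description of letters and not a binding site.

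Otx2 (ENSMUSG00000021848, chromosome 14 from 48657677 to 48673819, minus strand, GRCm38) had 215 and 204 counts in the ATO libraries and 4 and 10 counts in the controls. After scaling by library size this was 12.3 and 12.3 normalised CPM in ATO, against 0.271 and 0.662 CPM in control. The ATO libraries thus lay close together and far above both controls, which were themselves 2.44-fold apart. The log2 fold change was 4.69 ± 0.31 (SE, n = 2 per group), a 25.8-fold difference. From the counts alone the depth-scaled ratio was 26.4, with an exact binomial 95% interval from 15.5 to 48.7 that covers counting error only. Its size rested on the controls: leaving out control replicate 2 gave a log2 fold change of 5.46, and leaving out control replicate 1 gave 4.20. Exons of the long noncoding RNA gene Otx2os1 overlap those of Otx2 on the opposite strand, and those of the unconfirmed gene model Gm49154 overlap them on the same strand. The strand setting of the counting is not given in the sources used here, so reads from Otx2 and Otx2os1 cannot be told apart, and reads of Otx2 and Gm49154 could not be told apart by strand. Neither overlapping gene was analysed here.

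The 5 genes whose profile over the 4 libraries was most like that of Otx2 had log2 fold changes between 3.94 and 4.76. Likeness was the Euclidean distance between log2 CPM values centred on each gene's mean, over 13747 named genes with a mean of at least 1 CPM. F5, which encodes coagulation factor V, was nearest, at a distance of 0.302, with 393 and 425 counts in ATO and 11 and 27 in control. Cldn2, a claudin of leaky tight junctions, followed at 0.325, with 291 and 362 counts in ATO and 7 and 14 in control. Next came the chloride channel gene Clic6 at 0.491, the potassium channel gene Kcnj13 at 0.605 and Ecrg4, which encodes a secreted peptide precursor, at 0.629. Of these, F5, Cldn2, Clic6 and Kcnj13 are in the list of choroid plexus markers. Since likeness was measured on these 4 libraries, the shared order of the libraries follows from the choice. Over the whole list of choroid plexus markers, control replicate 2 was above control replicate 1 for 12 of the 18 with control counts.

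**Figure D1:**
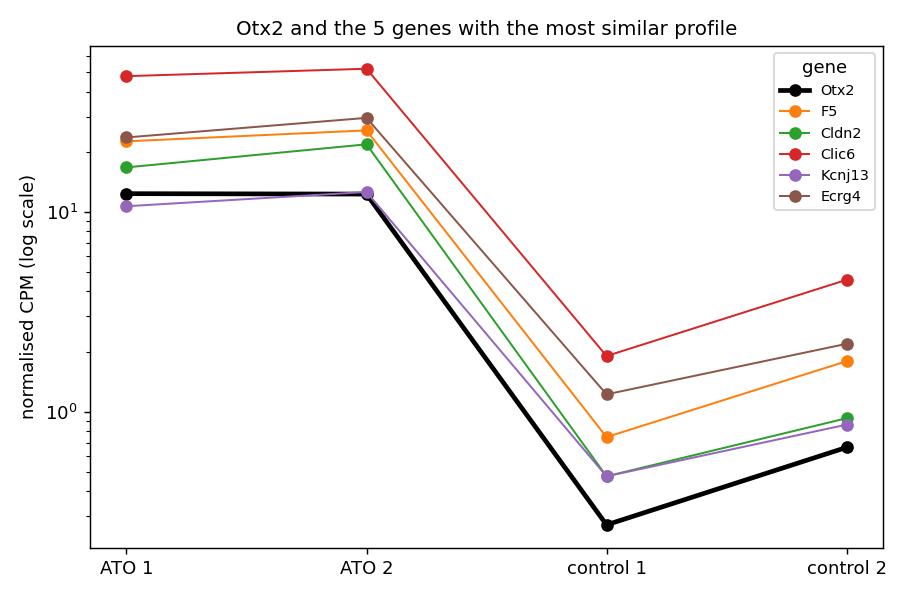
Normalised CPM (log axis) of Otx2 and the 5 genes with the most similar profile, in the ATO and control libraries; each line joins the 4 libraries of 1 gene and has no time order. Otx2 stands at 12.3 CPM in both ATO libraries and at 0.271 and 0.662 CPM in the controls, and the other 5 genes, chosen for their likeness on these 4 values, run close to parallel with it.

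Beside Otx2, all 20 choroid plexus markers rose in ATO, where 2.87% of all genes did. The list was drawn up with earlier results of these data known, so that count is a description. Their summed level was 3359 and 4217 CPM in ATO, against 148 and 220 CPM in control. Wfdc2 and the transcription factor gene Lmx1a had 0 counts in both controls. Their counts came from ATO alone, so no fall could have been seen. With 3 counts over both controls together taken as the floor, they were 27.6-fold and 16.2-fold higher in ATO. These are not lower limits: the exact 95% lower limits of their count ratios were 22.0 and 12.7. With these genes taken at the floor of 3 control counts, the median log2 fold change of the list was 4.17, against 0.00 for all genes tested. Among the 18 markers with control counts the log2 fold changes ran from 1.30 for the homeobox gene Msx1 to 6.53 for the bicarbonate transporter gene Slc4a5, with 6 of them above Otx2 and 12 below. Both are named as the ends of that range, after their values were seen. The part of this rise in the Otx2 difference was not tested, and in a whole-tissue sample more cells of a type and more RNA per cell cannot be told apart.

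Otx2 was also set against other genes of the choroid plexus list in the same library. Which cells the counts of these genes came from was not tested, so the ratios need not be proportions within choroid plexus cells. Per 100 counts of Ttr, the transthyretin gene and the most abundant marker, there were 0.540 and 0.427 Otx2 counts in ATO, against 1.33 and 1.07 in control. The exact 95% intervals of the controls, from 0.360 to 3.44 and from 0.512 to 1.98, are wide; the first spans both ATO values and the second spans that of ATO replicate 1. Per 100 counts of the klotho gene Kl there were 14.2 and 11.2 Otx2 counts in ATO, against 1.35 and 3.46 in control. Per 100 counts of Enpp2, the autotaxin gene, there were 1.71 and 1.34 in ATO, against 0.313 and 0.576 in control. Control replicates 1 and 2 held 297 and 289 counts of Kl and 1277 and 1736 of Enpp2, beside 301 and 933 of Ttr. Against Folr1, a folate receptor gene, there were 92.3 and 71.6 per 100 in ATO, against 400.0 and 71.4 in control, so the groups met. All the control ratios rest on 4 and 10 Otx2 counts, and those against Folr1 also on 1 and 14 Folr1 counts. The exact 95% interval of the ratio of 400.0 ran from 39.6 to 19699.

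Markers of other places that use OTX2 were examined next. Of 15 genes of retina, pineal gland, thalamus and midbrain 6 were in the table; 0 rose and 1 fell, and the number past the threshold was 0 without control replicate 2 and in DESeq2, and 2 without ATO replicate 2 or control replicate 1. Slc17a6, a vesicular glutamate transporter gene abundant in thalamus, did not pass and had 112 and 115 counts in ATO and 128 and 233 in control (-0.85 ± 0.23, adjusted p = 0.0575). That value rested on control replicate 2, without which it was -0.38 (adjusted p = 0.465), while it passed without any one of the other libraries. Nrl, a rod transcription factor gene, was at -0.59 ± 0.36 (adjusted p = 0.423) and Lef1, a Wnt pathway transcription factor gene, at 0.31 ± 0.25 (adjusted p = 0.567). Ependymal cells, which line the ventricles next to the choroid plexus, were represented by 13 markers, with a median log2 fold change of 1.24. Of these markers 9 rose and 0 fell, where 2.87% and 0.859% of all genes did. Their summed level was 71.1 and 52.4 CPM in ATO, against 26.1 and 30.9 CPM in control, and the number that passed was 3 without ATO replicate 1, without control replicate 1, without control replicate 2 and in DESeq2. With the smallest p among them, the dynein light chain gene Dynlrb2 had 44 and 38 counts in ATO and 4 and 8 in control (2.56 ± 0.45, adjusted p = 0.00518).

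Of 9 genes chosen as the Otx relative Otx1, the related gene Crx or known OTX2 targets, 4 were in the table; 1 rose and 0 fell. It was Mitf, a transcription factor gene that OTX2 is known to regulate in mouse retinal pigment epithelium, with 14.0 and 11.9 CPM in ATO and 7.94 and 7.62 CPM in control (log2 fold change 0.73 ± 0.17, edgeR adjusted p = 0.0272). It did not pass without ATO replicate 1 (adjusted p = 0.186), control replicate 1 (0.0694) or control replicate 2 (0.138), nor in DESeq2 (0.0815). Gadd45g and Gadd45b, stress-response genes that OTX2 has been linked to in mouse parvalbumin cells, were at log2 fold changes of 0.45 ± 0.14 (adjusted p = 0.107) and 0.20 ± 0.13 (adjusted p = 0.463). The paralog Otx1 had 63 and 61 counts in ATO and 45 and 54 in control, a log2 fold change of 0.14 ± 0.26.

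Parvalbumin and the net components showed no difference near that of Otx2: their log2 fold changes lay between -0.52 and 0.23. The groups did not overlap for 4 of the 8 genes, with both ATO libraries above both controls for Otx2 and Hapln1 and below them for Pvalb and Acan. Such separation was found for 48.1% of all genes, so a count of this size is close to the background.

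**Figure D2:**
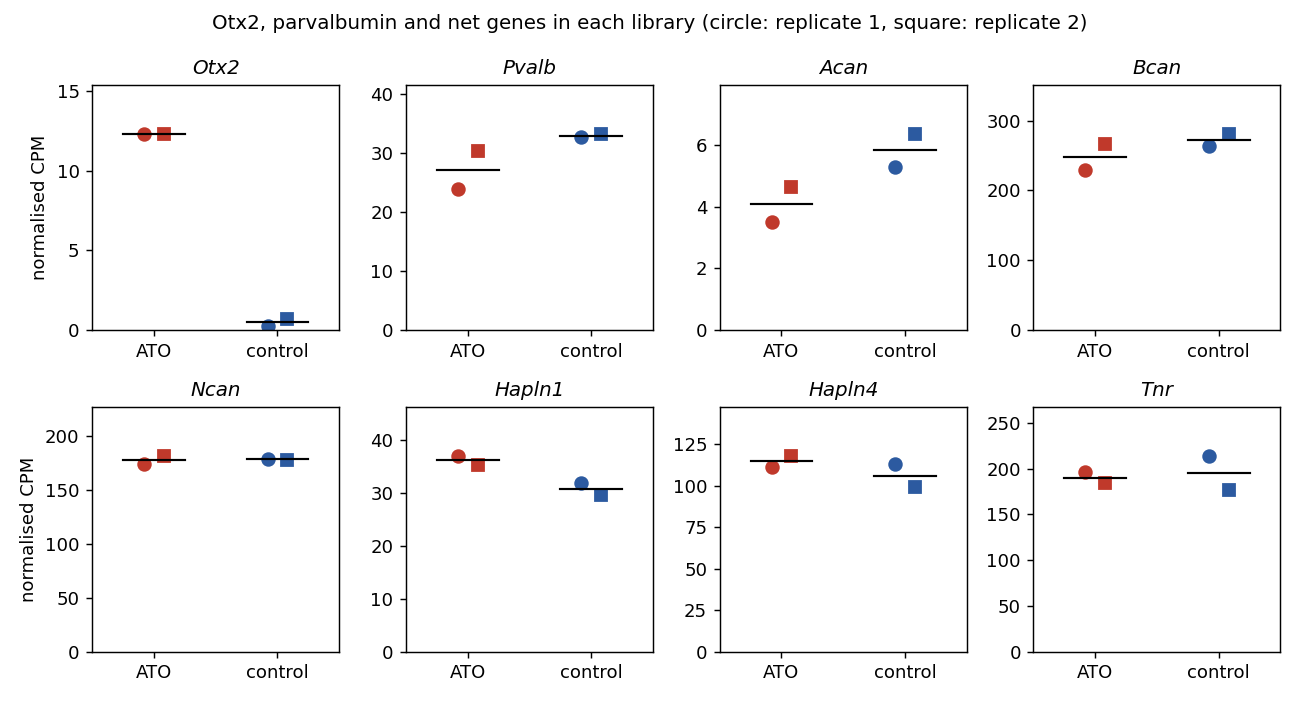
Normalised CPM of the 8 genes in each library, ATO left and control right, with circles for replicate 1, squares for replicate 2 and a bar at the mean of 2 libraries; each panel starts at 0. Otx2 stands apart between the groups, Pvalb and Acan lie somewhat lower and Hapln1 somewhat higher in ATO, and Bcan, Ncan, Hapln4 and Tnr overlap.

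Pvalb (ENSMUSG00000005716, chromosome 15 from 78191114 to 78206400, minus strand) had 414 and 504 counts in ATO and 480 and 502 in control, or 23.8 and 30.3 CPM in ATO and 32.6 and 33.2 CPM in control. The controls lay close together, and the ATO libraries spread more widely just below them. The log2 fold change was -0.28 ± 0.12 (SE), and it stood at -0.12 without ATO replicate 1 and at -0.47 without ATO replicate 2. Against Gad1, which encodes the GABA-synthesising enzyme of all inhibitory neurons, there were 7.93 and 9.77 Pvalb counts per 100 in ATO and 10.3 and 9.0 in control, so the groups overlapped on that scale. Against Sst, the somatostatin gene of another interneuron class, the ratios were 12.9 and 14.2 per 100 in ATO and 14.1 and 13.6 in control, which overlap as well.

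Among the lecticans, Acan (ENSMUSG00000030607, chromosome 7 from 79053483 to 79115099, plus strand), whose product is the most specific component of the nets, was the scarcest. It had 61 and 77 counts in ATO and 78 and 96 in control, or 3.5 and 4.64 CPM in ATO and 5.29 and 6.36 CPM in control. Both ATO libraries were below both controls, and the log2 fold change was -0.52 ± 0.24. The depth-scaled count ratio was 0.699, with an exact 95% interval from 0.555 to 0.879 for counting error only. The log2 fold change was -0.33 without ATO replicate 1 and -0.73 without ATO replicate 2. The profile most like that of Acan belonged to Chrna4, which encodes a nicotinic receptor subunit, at a distance of 0.0258, followed by C2cd4b, Bloc1s2-ps, Cdh7 and Efcab6. None of the 5 had an edgeR adjusted p under 0.05, and their smallest was 0.120.

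Brevican and neurocan are made by glia as well as neurons and are less confined to nets. Bcan (ENSMUSG00000004892, chromosome 3 from 87987531 to 88000230, minus strand) was the most abundant of the 8 genes, with 3994 and 4421 counts in ATO and 3893 and 4244 in control. Scaled, these were 229 and 266 CPM in ATO and 264 and 281 CPM in control, which overlap, and the log2 fold change was -0.14 ± 0.08, with -0.03 when ATO replicate 1 was left out and -0.25 when ATO replicate 2 was. Ncan (ENSMUSG00000002341, chromosome 8 from 70093085 to 70120873, minus strand) had 3039 and 3026 counts in ATO and 2634 and 2693 in control, or 174 and 182 CPM in ATO and 179 and 178 CPM in control. Its log2 fold change was 0.00 ± 0.07, and its depth-scaled count ratio of 1.00 had an exact 95% interval from 0.967 to 1.04.

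Both link protein genes had a higher mean level in ATO, and the groups were apart for 1 of them, Hapln1. Hapln1 (ENSMUSG00000021613, chromosome 13 from 89539796 to 89611652, plus strand) had 647 and 588 counts in ATO and 472 and 448 in control. Its levels of 37.1 and 35.4 CPM in ATO stood above the 32.0 and 29.7 CPM of the controls, at a log2 fold change of 0.23 ± 0.10. Hapln4 (ENSMUSG00000007594, chromosome 8 from 70083457 to 70090862, plus strand), whose product stabilises brevican at nets in the mouse brainstem and cerebellum, had 1942 and 1968 counts in ATO and 1660 and 1495 in control. At 111 and 118 CPM in ATO and 113 and 99.0 CPM in control the groups overlapped, and the log2 fold change was 0.12 ± 0.08, with 0.03 when control replicate 2 was left out and 0.22 when control replicate 1 was.

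Tnr (ENSMUSG00000015829, chromosome 1 from 159523769 to 159931729, plus strand) had 3416 and 3056 counts in ATO and 3149 and 2662 in control, or 196 and 184 CPM in ATO and 214 and 176 CPM in control. The ATO values lay within the span of the controls, and the log2 fold change was -0.04 ± 0.09. Its direction turned with single libraries, at -0.17 without control replicate 2, 0.11 without control replicate 1 and 0.01 without ATO replicate 2. Exons of the antisense gene Gm38039 overlap those of Tnr, and whether reads from the overlapping stretches were told apart is unknown here too.

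In the authors' deposited table the log2 fold changes of the 8 genes ran from -0.51 for Acan to 4.48 for Otx2, and 1 of the 8, Otx2, carried the authors' mark for differential expression, as did 0.974% of all genes.

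Levels were compared between genes per length, on the scale of the authors' deposited FPKM, a read density that allows for gene length and library size. The lengths implied by those values agreed within 0.28% with the summed exon lengths of the annotation, from 1041 bases for Pvalb to 12867 for Tnr. In ATO the order of mean FPKM was Bcan (60.9), Hapln4 (29.3), Pvalb (26), Ncan (24.8), Tnr (14.8), Hapln1 (6.14), Otx2 (2.92) and Acan (0.545). In control it was Bcan (66.8), Pvalb (31.5), Hapln4 (26.8), Ncan (24.7), Tnr (15.1), Hapln1 (5.2), Acan (0.775) and Otx2 (0.110). Within ATO, Hapln4 and Pvalb, and Pvalb and Ncan, were not separated beyond the spread of the 2 libraries, while neighbours in the control order did not overlap. Otx2 was above Acan in both ATO libraries and below it in both controls. Even in ATO, Otx2 exceeded only 35.8% of all genes in mean FPKM.

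Ratios of counts within a library do not depend on scaling between libraries. There were 1.53 and 1.74 Acan counts per 100 Bcan counts in ATO, against 2.0 and 2.26 in control; both ATO ratios were lower, but the exact 95% intervals, from 1.17 to 1.97 and 1.37 to 2.18 in ATO and from 1.58 to 2.51 and 1.83 to 2.77 in control, all overlapped. Ncan counts per 100 Bcan counts were 76.1 and 68.4 in ATO, against 67.7 and 63.5 in control. The link proteins overlapped between the groups, at 33.3 and 29.9 Hapln1 counts per 100 Hapln4 counts in ATO and 28.4 and 30.0 in control. Acan per 100 Pvalb counts came to 14.7 and 15.3 in ATO and 16.2 and 19.1 in control, and all 4 intervals overlapped.

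**Figure D3:**
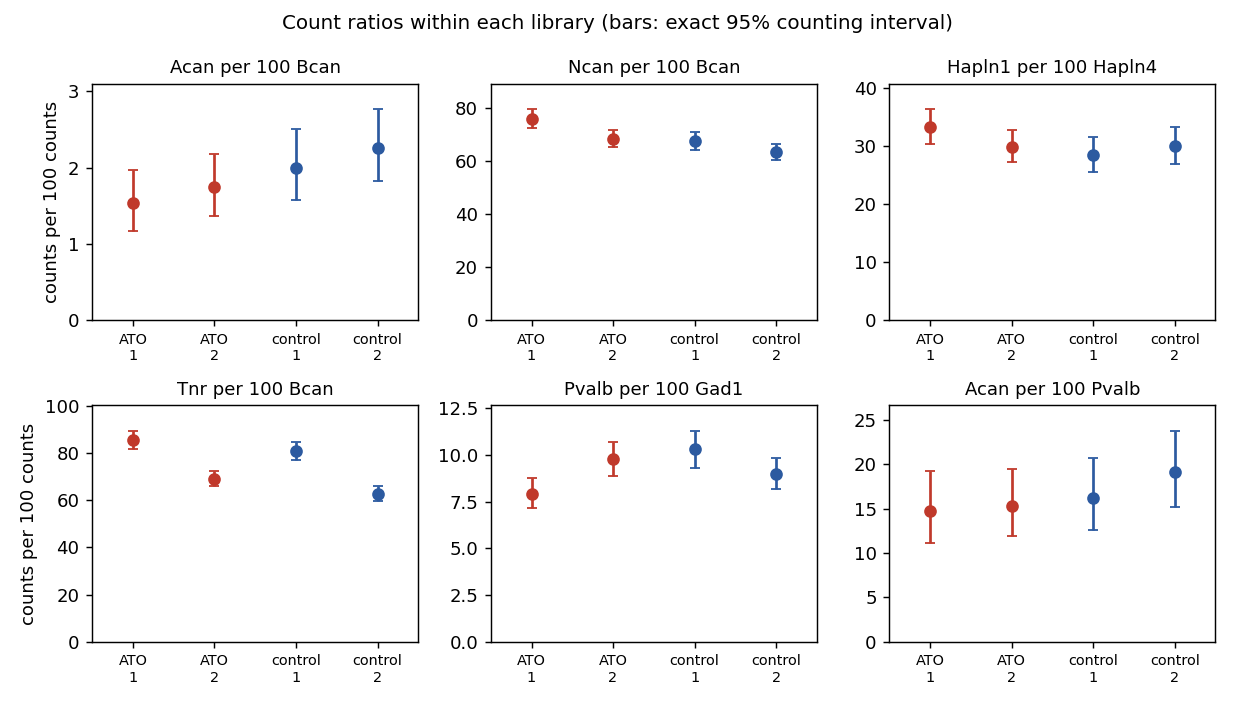
Counts of 1 gene per 100 counts of another within each library, ATO (red) left of control (blue), with exact 95% intervals for counting error; each axis starts at 0. Acan per 100 Bcan was 1.53 and 1.74 in ATO and 2.0 and 2.26 in control, while Hapln1 per 100 Hapln4 and Pvalb per 100 Gad1 overlapped between the groups.

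Each mouse lectican gene lies beside a link protein gene. Acan and Hapln3 face each other on chromosome 7 with their 3′ ends 2 bases apart. Ncan and Hapln4 face each other on chromosome 8 across 2222 bases, Vcan and Hapln1 on chromosome 13 across 43659 bases, and Bcan and Hapln2 lie on the same strand of chromosome 3, 21519 bases apart, with 0 protein-coding genes between the genes of any pair. Hapln3 had 24 and 11 counts in ATO and 22 and 26 in control, a log2 fold change of -0.64 ± 0.43 (edgeR adjusted p = 0.462) beside -0.52 for Acan. The values were -0.18 ± 0.12 for Hapln2 (adjusted p = 0.465) beside -0.14 for Bcan, and -0.10 ± 0.14 for Vcan, the versican gene (adjusted p = 0.783), beside 0.23 for Hapln1.

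Other genes of the net were set beside the 3.73% of all genes called. Of 12 further matrix genes tested 0 rose and 1 fell, with a median log2 fold change of -0.12. The gene that fell was Cspg4, the NG2 proteoglycan gene of oligodendrocyte precursors and pericytes, at 17 and 14.1 CPM in ATO and 23.3 and 21.1 CPM in control (log2 fold change -0.51 ± 0.13, edgeR adjusted p = 0.0496). It did not pass without ATO replicate 2 (adjusted p = 0.280), control replicate 1 (0.164) or control replicate 2 (0.112), nor in DESeq2 (0.153) or limma-voom (0.0518). Cspg5, which encodes neuroglycan C, was at -0.14 ± 0.08 (adjusted p = 0.403). Among 12 genes of net receptors 1 rose, the syndecan gene Sdc4 (log2 fold change 0.35 ± 0.08, adjusted p = 0.0233; 0.0683 without ATO replicate 1, 0.106 without ATO replicate 2 and 0.0944 without control replicate 2), and 0 fell. Ptprs, which encodes the phosphatase receptor of chondroitin sulfate, was at -0.16 ± 0.08 (adjusted p = 0.310), the Nogo receptor relative Rtn4rl2 at 0.28 ± 0.10 (0.154) and the semaphorin receptor gene Nrp1 at 0.14 ± 0.09 (0.420).

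Among 16 genes of proteases that cut net components, and of their inhibitors, 2 rose and 0 fell. Plat encodes tissue plasminogen activator and had 895 and 1018 counts in ATO and 512 and 551 in control (log2 fold change 0.66 ± 0.10, edgeR adjusted p = 0.00182). Timp3, whose product inhibits metalloproteinases, had 1354 and 1098 counts in ATO and 749 and 641 in control (0.63 ± 0.11, adjusted p = 0.00358, and 0.0649 without control replicate 2). The gelatinase gene Mmp2 had 49 and 54 counts in ATO and 23 and 20 in control, but did not pass (1.07 ± 0.32, adjusted p = 0.0856), nor did the membrane metalloproteinase gene Mmp24 (0.30 ± 0.10, adjusted p = 0.119). The lectican-cutting enzymes Adamts4 and Adamts5 were at 0.06 ± 0.13 (adjusted p = 0.874) and -0.65 ± 0.35 (adjusted p = 0.345), and Mmp9, the other gelatinase gene, at 0.21 ± 0.40 (adjusted p = 0.835); these 3 were named for their role after their values were seen. The 20 choroid plexus markers rose in the same libraries, and their part in the rise of Plat and Timp3 was not tested. Of 20 genes that build or sulfate chondroitin chains 0 passed in edgeR, DESeq2 or limma-voom, 4 had an unadjusted edgeR p under 0.05, where 18.1% of all genes did, and the median log2 fold change was -0.02; with the smallest p, Chpf2, a chondroitin polymerising factor gene, was at -0.32 ± 0.09 (adjusted p = 0.0815). Slc35d1, a nucleotide sugar transporter gene, was at 0.41 ± 0.14 (adjusted p = 0.139), and Csgalnact1 and Csgalnact2, whose enzymes start the chondroitin chain, at 0.33 ± 0.15 (0.256) and 0.27 ± 0.12 (0.249).

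Genes typical of parvalbumin cells were examined beside Pvalb. Of 23 tested, 0 passed in edgeR, DESeq2 or limma-voom and 5 had an unadjusted edgeR p under 0.05, against 18.1% of all genes; 2 passed without control replicate 1 and 1 without ATO replicate 2. Their median log2 fold change was -0.10, with 17 lower and 6 higher, where 8012 of all 15713 genes were lower and 7701 higher. The potassium channel subunit gene Kcnab3 had 341 and 397 counts in ATO and 409 and 436 in control (-0.38 ± 0.12, adjusted p = 0.0996), and Btbd11, an ankyrin repeat gene, had 228 and 264 in ATO and 278 and 295 in control (-0.41 ± 0.14, adjusted p = 0.126). Satb1, a chromatin organiser gene needed for interneuron maturation, was at -0.20 ± 0.08 (adjusted p = 0.217). Both ATO libraries were below both controls for 8 of the 23 genes and above them for 2, where 23.4% and 24.8% of all genes were so placed.

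Among markers of other interneurons 2 of 17 fell and 0 rose. Npy, the neuropeptide Y gene, had 36.9 and 36.7 CPM in ATO and 50.2 and 45.4 CPM in control (log2 fold change -0.38 ± 0.09, edgeR adjusted p = 0.0419). Crhbp, whose product binds corticotropin-releasing hormone, had 16.8 and 24.3 CPM in ATO and 28.0 and 35 CPM in control (-0.62 ± 0.16, adjusted p = 0.0435). The count was 0 without ATO replicate 1, without control replicate 2, with library size alone and in DESeq2. Npy also did not pass without control replicate 1 (adjusted p = 0.135) or ATO replicate 2 (0.110). Sst (-0.26 ± 0.08, adjusted p = 0.112) and Vip (-0.57 ± 0.20, adjusted p = 0.128), neuropeptide genes of other interneuron classes, did not pass. Vip passed without ATO replicate 2, at -0.92 (adjusted p = 3.51e-04). The list median was -0.18, 14 of 17 were lower, and for 11 of 17 both ATO libraries were below both controls; of all 15713 genes 8012 were lower, and 23.4% had both ATO libraries below both controls. Of 10 genes shared by inhibitory neurons 0 passed in edgeR, DESeq2 or limma-voom and 2 had an unadjusted edgeR p under 0.05, against 18.1% of all genes; the vesicular GABA transporter gene Slc32a1 was at -0.26 ± 0.09 (adjusted p = 0.154) and Gad1 at -0.17 ± 0.08 (adjusted p = 0.297), with the transcription factor genes Maf at 0.32 ± 0.12 (0.165) and Dlx2 at -0.32 ± 0.22 (0.486). For CA2, whose pyramidal neurons also carry nets, 0 of 10 markers passed in edgeR, DESeq2 or limma-voom, 0 had an unadjusted edgeR p under 0.05, and the median was 0.05. The phosphatase gene Ptpn5 was at -0.17 ± 0.08 (adjusted p = 0.285), Rgs14, a regulator of G protein signalling, at -0.17 ± 0.09 (0.351), the adhesion gene Amigo2 at 0.19 ± 0.10 (0.345) and Cacng5, a glutamate receptor auxiliary subunit gene, at 0.24 ± 0.16 (0.489). Of the 10, 6 were higher in ATO and 4 lower.

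**Figure D4:**
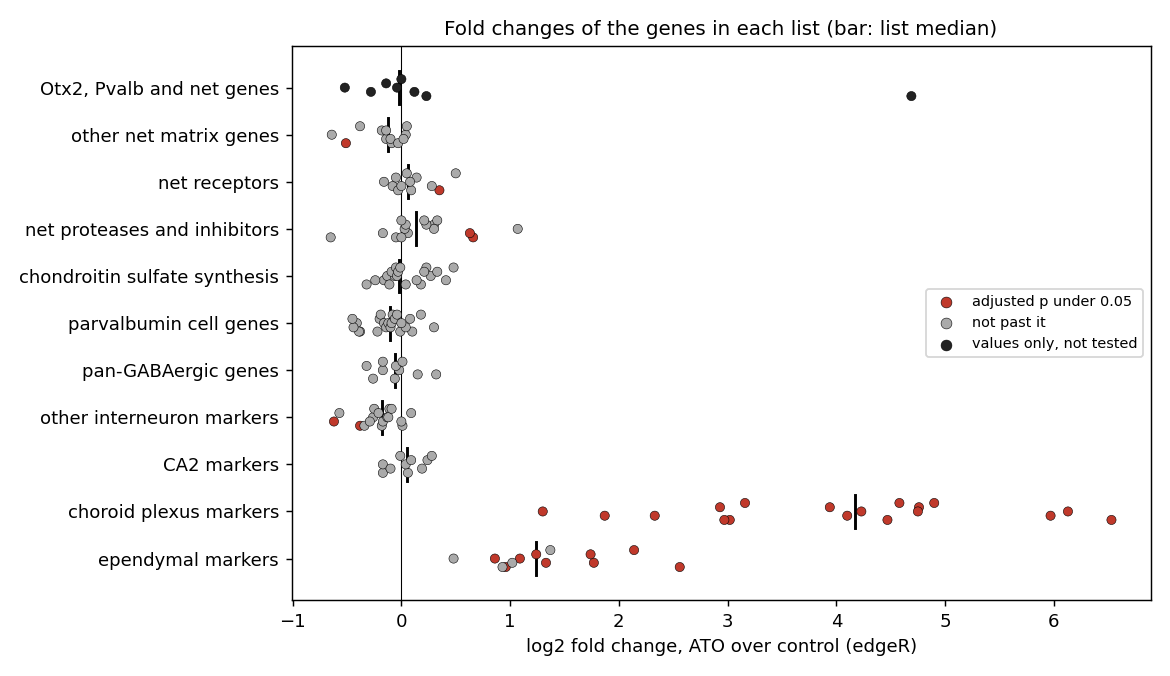
Log2 fold change, ATO over control, of each gene in 11 lists. Red points had an edgeR adjusted p under 0.05, grey points did not, and black points are described without a test. Bars mark the median. Choroid plexus genes with 0 control counts are not drawn, and enter that list's median at the floor of 3 control counts. Otx2 at 4.69 lies among the choroid plexus markers, while Pvalb, the net genes and the interneuron lists lie near 0.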

How the data were processed

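Messenger RNA of 4 hippocampus samples was sequenced from TruSeq libraries, per the labels' protocols. The submitters' processing notes name HISAT2 (2.0.1), HTSeq (0.6.1), limma (3.47.15), R (4.1.0), FastQC (0.10.1), cutadapt (1.9.1) and the build GRCm38. Which tool did what, and the strand setting, the sources used here do not give. The authors deposited read counts and FPKM per gene and library, their log2 fold change, and their p-value and adjusted p-value, per the file headers. Counts gave all results here, and FPKM gave only levels between genes.

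ATO was compared with control in edgeR 4.0.16 (R 4.3.3) after filterByExpr, which removed 0 genes, and TMM scaling; the quasi-likelihood fit had no covariate, and p-values were adjusted by Benjamini-Hochberg over 15713 genes. The SE is the log2 fold change divided by the square root of F. The biological coefficient of variation was 7.16%. Profiles used log2 CPM with a prior count of 2. Exact 95% binomial intervals and the floor of 3 counts cover counting error only. With 2 libraries per group an exact permutation of 1 value cannot reach the threshold, so none was run. Replicates differed by more than sampling noise (chi-square per degree of freedom 5.35 in ATO and 7.33 in control). Alternatives were DESeq2 1.42.0, limma-voom (limma 3.58.1), library size only, other filters, leaving out each library and a replicate block. Scripts were checked on simulated counts. Positions came from GENCODE on GRCm38 and promoter windows from RefSeq.

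The 8 genes and the lists were chosen with earlier results of these data known. Named from each list were up to 4 genes with the smallest p, all that passed where no more than 6 did, and for genes of the 8 with an absolute log2 fold change over 0.5 the 5 nearest profiles without predicted genes; the neighbouring lectican and link protein genes were named too. For choroid plexus, ependymal, CA2 and the lists under other observations only some of these are given. Some genes that this rule names are not reported here.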

Additional observations from a re-analysis of the deposited data

How the results depend on the processing

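The log2 fold change of Otx2 was 4.20 to 5.46 with single libraries left out and 4.69 to 4.74 under the other alternatives. The choroid plexus markers that rose numbered 18 among genes with a mean of at least 50 counts and 20 under the other 9 alternatives. Wfdc2 and Lmx1a lay below a mean of 50 counts and were not tested in that setting. DESeq2 called 316 genes (252 higher, 64 lower), 0 of the further matrix genes, other interneuron markers, Otx family and target genes, markers of other OTX2 sites and hippocampal neuron markers, 3 ependymal markers and 1 oligodendrocyte precursor marker. Library size alone gave 0 further matrix genes, 0 other interneuron markers, 0 hippocampal neuron markers and 1 precursor marker. Limma-voom gave 0 matrix genes and 1 precursor marker. Genes with a mean of at least 50 counts gave 0 matrix genes, 0 markers of other OTX2 sites, 4 ependymal markers (fewer genes were tested) and 1 precursor marker. With each library left out in turn, calls ranged from 222 to 611 genes (180 to 443 higher, 42 to 168 lower), 0 to 1 matrix genes, receptors, Otx family genes and oligodendrocyte markers, 1 to 2 proteases and inhibitors, 0 to 2 parvalbumin cell genes, other interneuron markers, markers of other OTX2 sites and precursor markers, 0 to 3 hippocampal neuron and astrocyte markers, 3 to 11 ependymal and 0 to 8 meningeal markers; a lone library was taken to vary like the other group. The cause of these shifts was not tested. Same-numbered libraries deviated together with a correlation of 0.0948 over 15466 genes, which does not show that the numbers pair the samples; with a replicate block the calls were 1366 genes (890 higher, 476 lower), 4 proteases and inhibitors, 1 chondroitin gene, 3 parvalbumin cell genes, 4 other interneuron markers, 2 Otx family genes, 2 markers of other OTX2 sites, 5 hippocampal neuron markers, 5 astrocyte markers and 8 meningeal markers. Adding 0.5 to each count before taking ratios changed no direction. With 14 Otx2 counts over both controls, counting error alone left its ratio between 15.5 and 48.7.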

Other observations

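Glial cells that make lecticans and tenascin-R gave the following values. Of 12 astrocyte markers 1 rose, the connexin gene Gjb6 (log2 fold change 0.44 ± 0.09, edgeR adjusted p = 0.0137), and 0 fell, with a median of -0.01. The value of Gjb6 was 0.35 without ATO replicate 1 and 0.37 without control replicate 2, and Gjb6 did not pass in either of these fits. An unadjusted edgeR p under 0.05 was found for 8 of the 12 astrocyte markers, where 18.1% of all genes had one. Both ATO libraries were above both controls for 4 and below them for 4, where 24.8% and 23.4% of all genes were so placed. Of 11 oligodendrocyte precursor markers 1 rose, the receptor gene Gpr17 (0.43 ± 0.09, adjusted p = 0.0137; 0.0893 without control replicate 2), and 1 fell, Cspg4. Of 12 markers of mature oligodendrocytes 0 rose and 1 fell, Opalin, a myelin membrane protein gene (-0.66 ± 0.13, adjusted p = 0.0107; 0.0640 without ATO replicate 1 and 0.0638 without control replicate 2). Of 12 meningeal markers 11 were higher in ATO, with a median of 0.69, 9 had an unadjusted p under 0.05 (18.1% of all genes did), and their summed level was 718 and 391 CPM in ATO and 464 and 319 CPM in control. Of these markers 1 rose, the growth factor gene Igf2 (1.70 ± 0.30, adjusted p = 0.00517; 0.0699 without control replicate 2), and 1 fell, the decorin gene Dcn (-0.56 ± 0.10, adjusted p = 0.00488; 0.0649 without control replicate 2). Among the 12 neuronal and hippocampal markers 0 rose and 1 fell, the wolframin gene Wfs1 (-0.42 ± 0.11, adjusted p = 0.0463; 0.411 without ATO replicate 1, 0.0522 without control replicate 1 and 0.263 without control replicate 2).

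The ratio of Tnr to Bcan differed more within groups than between them. There were 85.5 and 69.1 Tnr counts per 100 Bcan counts in ATO, against 80.9 and 62.7 in control. The exact 95% intervals of replicates 1 and 2 did not overlap in ATO (81.7 to 89.5 and 66.0 to 72.4) nor in control (77.2 to 84.8 and 59.7 to 65.9). This pattern was noticed after the values were seen and was not tested.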
